A study of Mus musculus with 24 samples.

Results

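The NF-κB subunits and their feedback regulators are described here by 10 genes, taken by name from the 37315 genes of the normalized count table through GENCODE vM21. They are the 5 subunit genes Nfkb1, Nfkb2, Rela, Relb and Rel, the inhibitor genes Nfkbia and Nfkbie, the genes Bcl3 and Nfkbiz of the nuclear IκB proteins, and Tnfaip3, which codes for the deubiquitinase A20. The list was set by gene name, with no threshold on a measured value, although earlier results of these data were known when it was drawn up. RNA was sequenced from 24 libraries of the PaX mouse reprogramming system, 2 for each of 12 populations: embryonic stem cells (ESCs), neural precursor cells (NPCs), cells at day 2 and at day 5, each with and without IFNγ, and, also with and without it, the X-GFP–negative, the X-GFP–medium and the X-GFP–high gate of day 7. All populations share 1 female ESC line, a hybrid of 129S1/SvImJ and CAST/EiJ, with an X-GFP reporter in Hprt on the musculus X chromosome (X mus), a truncated Tsix that makes this X the preferred inactive one, a Nanog promoter-RFP reporter, and a doxycycline-inducible cassette of cMyc, Klf4, Oct4 and Sox2 in Sp3 with its transactivator. NPCs were made from these ESCs. Reprogramming was run from NPCs with doxycycline, LIF and ascorbic acid on male irradiated fibroblasts, IFNγ was kept at 10 ng/ml until day 5 from the start, and the day 7 cells were therefore collected 2 days after its end. Day 2 cells were sorted as negative for CFSE, a dye with which the feeders had been stained, day 5 cells by the surface marker SSEA1, and day 7 cells by SSEA1 and X-GFP. The X-GFP groups of day 7 are therefore gates and not separate treatments, and each group is a model of 1 line.

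The libraries held 24746109 to 37056508 reads on genes. The summed normalized count of 7 ESC markers was 66 to 99 in NPCs and 152858 to 160022 in ESCs, and that of 7 NPC markers was 43168 to 47999 in NPCs and 635 to 692 in ESCs. In single libraries, Zfp42 and Fgf4 were at 0 in 1 of the 2 NPC libraries and Olig2 in 1 of the 2 ESC libraries. The summed count of 4 Y-linked genes was 125 to 253 in the 4 day 2 libraries and at most 12.5 in all others, and the day 2 control libraries had 42328 and 62743 on 10 fibroblast feeder markers, which NPCs carried too at 31926 and 45850. The effect of IFNγ on its own response genes was present at day 2, where 6 of 6 rose, and Irf1, the transcription factor of the pathway, went from 375 ± 68.6 to 7716 ± 327 normalized counts (SD, n = 2). In the bulk samples, fewer cells of a type and less RNA per cell cannot be told apart.

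NF-κB is a family of dimeric transcription factors. RELA, RELB and c-Rel (Rel) carry activation domains, whereas p105 and p100, the products of Nfkb1 and Nfkb2, are processed to the DNA-binding partners p50 and p52. In resting cells the dimers are held in the cytoplasm by IκB proteins, until the IKK kinase complex, reached from TNF, IL-1 and Toll-like receptors, marks the IκB for degradation. Several members are themselves targets of the pathway. IκBα (Nfkbia) and IκBε (Nfkbie) return the dimers to the cytoplasm, A20 removes ubiquitin chains upstream of IKK, and BCL3 and IκBζ (Nfkbiz) act in the nucleus as cofactors of p50 and p52.

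Promoter windows from RefSeq (GRCm38.p6, 250 bases before to 50 after a start site) were at hand for 7 of the 10 genes, with 10 windows in all. They were searched on both strands for the κB consensus, a motif of 10 bases, and for the interferon motif ISRE. Each search counted overlapping matches. A κB match was found for 6 of the 7 genes (Nfkb2, Rel, Nfkbia, Nfkbie, Tnfaip3 and Bcl3, but not Rela), against 9.55% of all 27025 genes with a window, and 8.46% of all 32851 windows. ISRE was matched in none of the 7, against 3.99% of all genes. Shown are 150 bases before to 20 after the start site for the 4 regulators whose values the IFNγ comparisons turn on, with κB matches in capitals.
Nfkbia, chr12:55492628-55492797, minus strand: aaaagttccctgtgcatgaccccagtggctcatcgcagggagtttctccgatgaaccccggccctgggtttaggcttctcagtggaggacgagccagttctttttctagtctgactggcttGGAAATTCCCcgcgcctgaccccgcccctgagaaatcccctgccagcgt
Nfkbie, chr17:45555550-45555719, plus strand: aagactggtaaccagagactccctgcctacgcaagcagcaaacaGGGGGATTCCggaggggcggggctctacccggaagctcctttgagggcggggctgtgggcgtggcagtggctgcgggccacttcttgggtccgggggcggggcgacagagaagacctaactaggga
Tnfaip3, chr10:19015391-19015560, minus strand: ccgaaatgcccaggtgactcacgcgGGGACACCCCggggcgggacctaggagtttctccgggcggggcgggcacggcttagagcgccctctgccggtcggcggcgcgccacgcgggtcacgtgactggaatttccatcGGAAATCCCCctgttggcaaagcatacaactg
Bcl3, chr7:19822736-19822905, minus strand: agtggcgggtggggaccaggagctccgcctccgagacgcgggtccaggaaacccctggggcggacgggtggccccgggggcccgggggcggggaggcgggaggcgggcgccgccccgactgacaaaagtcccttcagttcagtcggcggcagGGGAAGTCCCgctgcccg
The match began at base -29 in Nfkbia, at -106 in Nfkbie, at -125 and -12 in Tnfaip3 and at 3 in Bcl3, counted from the start site. A match is a string of letters and not a measured binding site, and a second Tnfaip3 window held none.

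In the GRCm38 (mm10) coordinates of GENCODE vM21, Nfkb1 lies at chr3:135584655-135691547 and Nfkb2 at chr19:46304320-46312385. Rela is at chr19:5637483-5648130, Relb at chr7:19606217-19629438 and Rel at chr11:23736847-23770970. The other genes are Nfkbia (chr12:55489410-55492647), Nfkbie (chr17:45555703-45563169), Nfkbiz (chr16:55811375-55838899), Tnfaip3 (chr10:19000910-19015657) and Bcl3 (chr7:19808462-19822770). Bcl3 and Nfkb2 overlap annotated genes on the opposite strand, and whether counting used the strand is not given in the sources used here.

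The 10 genes were compared with each other as normalized counts per kilobase of exon. Nfkbia was the highest of them in all 12 populations, from 241 per kilobase in NPCs to 1318 in the day 7 X-GFP–negative control. Rela was the next in 10 of the 12. Rel was the lowest in 11 of the 12, from 2.94 to 13.7 per kilobase, and only in NPCs was Bcl3 below it, at 2.46. Nfkbie ranked ninth, just above Rel, in 10 populations. With the length of the longest transcript in place of all exons, Nfkbia stayed on top in 11 populations and Nfkb1 passed it in NPCs, while Rela was second in 2 populations only and Nfkb1 in 9.

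Between populations, the genes differed in how far their level moved. Nfkb1 was the steadiest, with 2.31-fold between the highest mean (day 5 with IFNγ) and the lowest (ESCs). Rela spanned 3.52-fold, Nfkbie 3.76-fold, Rel 4.68-fold, Nfkbia 5.47-fold, Nfkb2 5.91-fold and Nfkbiz 5.94-fold. Relb spanned 26.6-fold and Tnfaip3 30.4-fold, both with their highest mean in the day 7 X-GFP–negative control, and Bcl3 74.2-fold, from NPCs to day 5 with IFNγ. Of the 11 pairs of neighbors in each gene's order of populations, 4 (Nfkb1) to 7 (Relb, Rel and Nfkbie) overlapped between their libraries. The lowest read number in any library was 5 for Bcl3, 18 for Rel, 25 for Tnfaip3, 29 for Nfkbie and 31 for Relb, and 131 or more for the other 5, so the low ends of these ranges carry the largest counting error.

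**Figure D1:**
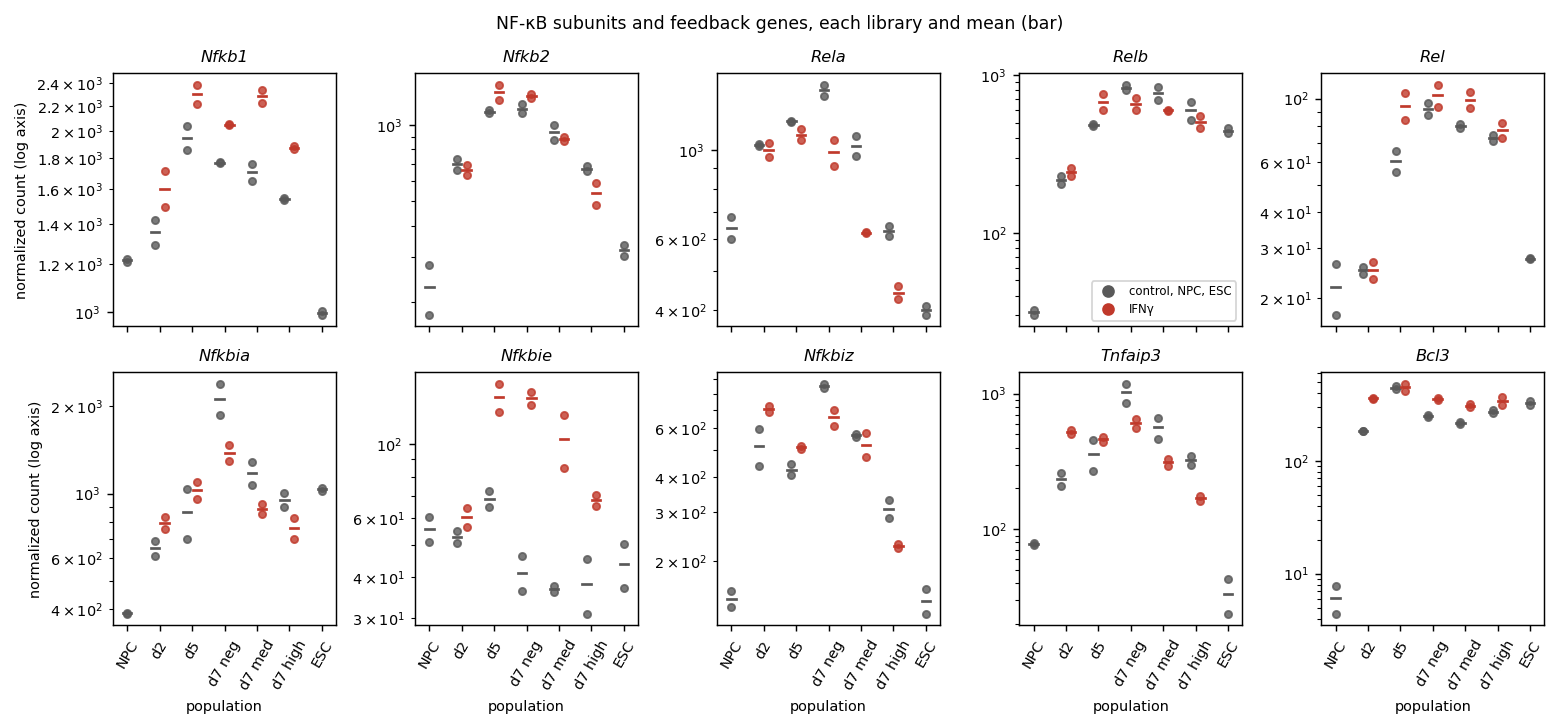
Normalized counts (log axis) of the 10 genes in the 12 populations, 1 point per library and a bar at the mean of the 2 libraries, gray without and red with IFNγ. Bcl3 and Relb are lowest in NPCs, Tnfaip3 in ESCs, and the red points of Nfkbie lie above the gray ones at day 5 and in the 3 day 7 gates.

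The course of the family without IFNγ was followed from NPCs through day 2, day 5 and day 7 to ESCs. Consecutive comparisons share libraries, so their values are given side by side and were not related to each other. From NPCs to day 2, 7 members rose and none fell. In the same comparison 31.6% of the 15738 genes tested rose and 37.6% fell, so 7 of 10 rising members stand beside a background in which lower calls were the more frequent. Bcl3 had 7.78 and 4.39 normalized counts in the NPC libraries and 184 in each day 2 control library. Relb had 30.1 and 32.5 against 230 and 204. Neither gene's groups overlapped. Their log2 fold changes were 4.75 ± 0.33 (SE) and 2.75 ± 0.21, with limma adjusted p of 0.000137 and 0.000184. Nfkbiz (1.81), Nfkb2 (1.65), Tnfaip3 (1.56), Nfkbia (0.74) and Rela (0.68) also rose, on the log2 scale, with limma adjusted p of at most 0.00222. Nfkb1 (0.15), Rel (0.22) and Nfkbie (-0.07) did not pass the threshold of 0.1. The targets of the pathway moved in the same comparison, with 15 of 19 tested target genes higher and 2 lower, and 11 of 13 tested ligand and receptor genes higher. The Y-linked sum was also higher at day 2 than in NPCs, where it was at most 1.94, while the feeder sums given above overlapped. The sort for CFSE-negative cells at day 2 was meant to remove feeders. The line is female and the feeders are male, so the Y-linked reads mark feeder RNA left after the sort. The part of this feeder RNA in the values was not tested.

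From day 2 to day 5, 8 members rose, against 34.9% of all genes that rose and 35.6% that fell. Bcl3 reached 431 and 461 (log2 1.27 ± 0.13), Rel 55.5 and 65.7 from 24.4 and 25.8 (1.23 ± 0.27), and Relb 488 and 475 (1.15 ± 0.13). Nfkb2 rose from 736 and 662 to 1147 and 1113, and Nfkb1 from 1421 and 1291 to 2034 and 1860. All 5 have limma adjusted p of at most 0.00592, and none of their groups overlapped. Tnfaip3, Nfkbia and Rela passed more narrowly, with limma adjusted p of 0.0799, 0.0975 and 0.0631, and the day 5 control libraries differed by themselves, with 454 and 268 for Tnfaip3 and 1037 and 697 for Nfkbia. Without day 5 control replicate 1, these 3 were no longer called and 5 members remained. With values rescaled to the same total, the median log2 change of all genes moved from 0.00 to -0.13, the same 3 lost their call and Nfkbiz was called lower.

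At day 7, the X-GFP–negative control cells had the highest level of 5 members, Rela, Relb, Nfkbia, Nfkbiz and Tnfaip3, of all populations by the mean. Against day 5, 6 members rose and 2 fell, beside 34.2% of all genes higher and 29.5% lower. Tnfaip3 had 1182 and 856 normalized counts and was 1.53 ± 0.24 higher on the log2 scale, Nfkbia had 2384 and 1858 (1.31 ± 0.19) and Nfkbiz 868 and 841 (1.00 ± 0.10), with limma adjusted p of at most 0.00119 and no overlap with day 5. Relb (0.79), Rel (0.60) and Rela (0.25) rose as well. Bcl3, the nuclear cofactor, went the other way, from 431 and 461 to 257 and 244 (-0.83 ± 0.12, limma adjusted p 0.0007), and so did Nfkbie, from 72.4 and 64.8 to 36.2 and 46.1 (-0.73 ± 0.24, adjusted p 0.0308). Without day 7 X-GFP–negative control replicate 1, the library that was higher for Tnfaip3 and Nfkbia, 5 of the 8 were called, and Rela, Rel and Nfkbie were lost. Some genes of the leukocyte and feeder marker lists rose in the same comparison, with Cd68 at 599 and 2544 normalized counts in the mean, Csf1r at 6.78 and 172 and Dcn at 879 and 4051. Feeder markers with lower means at day 7 included Col3a1 (208 and 21.8), Col1a1 (380 and 142) and Col1a2 (505 and 302). Ptprc, of the leukocyte list, had means of 14.2 and 9.72, and the Y-linked gene Ddx3y 2.13 and 0.549. Of the markers tested, 2 of 3 leukocyte genes rose, and 3 of 9 feeder genes rose and 3 fell. Their part in the values of the NF-κB genes was not tested.

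Within day 7, the control cells that had reactivated X-GFP had less of most members. In X-GFP–high against X-GFP–negative cells, 7 members fell and none rose, beside 34.7% of all genes higher and 39.3% lower. Tnfaip3 fell to 350 and 296 (log2 -1.64 ± 0.14), Nfkbiz to 285 and 331 (-1.47 ± 0.10), Rela from 1450 and 1357 to 647 and 609 (-1.16 ± 0.08) and Nfkbia to 1002 and 902 (-1.15 ± 0.11), all with limma adjusted p of at most 2.95e-06 and no overlap. Nfkb2 (-0.79), Relb (-0.49) and Nfkb1 (-0.20) fell by less. The X-GFP–medium controls lay between the outer gates for Nfkb1, Nfkb2, Rela, Relb, Rel, Nfkbia, Nfkbiz and Tnfaip3 by their means, with Tnfaip3 at 665 and 467 and Rela at 1080 and 965. The ESC marker sum was 41311 to 45265 in the X-GFP–negative controls and 107855 to 111902 in the X-GFP–high controls. Of its genes, Pou5f1 was called lower (log2 -0.16), and Nanog, Zfp42, Esrrb, Dppa5a, Fgf4 and Tdh higher. The means of Cd68 (2544 to 1170), Csf1r (172 to 31.4) and Dcn (4051 to 1922) fell, as did 2 of 2 leukocyte and 6 of 9 feeder markers tested, while 3 feeder markers rose. The part of these markers in the values was not tested.

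ESCs had less again of 7 members than day 7 X-GFP–high controls, and more of Bcl3, beside 37.8% of all genes higher in ESCs and 37.9% lower. Tnfaip3 was at 43.2 and 23.8 in ESCs, a log2 difference of -3.28 ± 0.24 (limma adjusted p 3.27e-08). Rel had 27.5 and 27.6 against 71.2 and 74.7 (-1.37 ± 0.23), Nfkbiz 129 and 159 (-1.10 ± 0.15) and Nfkb2 304 and 336 (-1.07 ± 0.10). Bcl3 was higher by 0.24 ± 0.12 (adjusted p 0.0759), a call that was lost with rescaled values. Nfkbia and Nfkbie did not pass the threshold. Set directly against NPCs, ESCs had more Bcl3 (338 and 310, log2 5.56 ± 0.31), Relb (430 and 460, 3.79 ± 0.18), Nfkbia (1045 and 1024 against 386 and 390, 1.41 ± 0.08) and Nfkb2 (0.52 ± 0.23), and less Tnfaip3 (-1.26 ± 0.33), Rela (-0.68 ± 0.11) and Nfkb1 (-0.29 ± 0.07). The limma adjusted p were at most 0.0136 except for Nfkb2, at 0.0822. In this comparison 42.2% of all genes were higher and 43.4% lower, and rescaling moved their median from -0.03 to -0.16 and took Nfkb2 below the call.

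**Figure D2:**
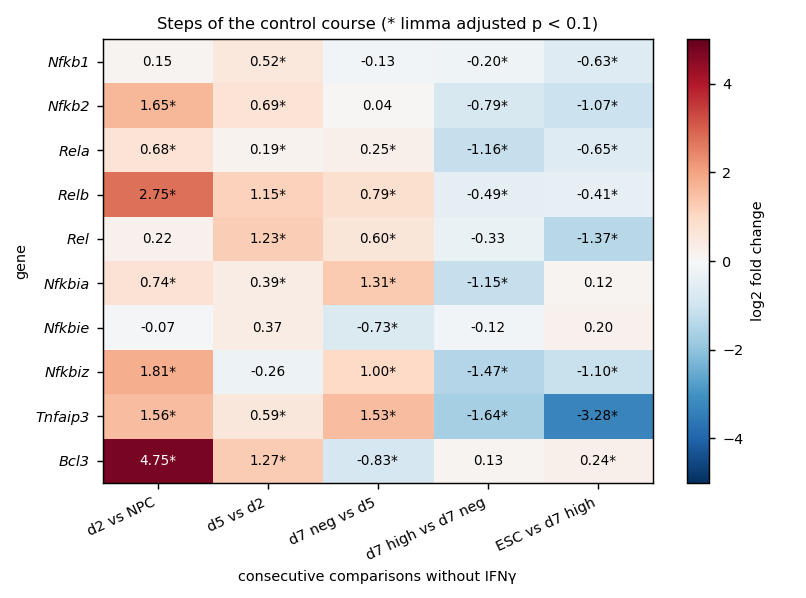
Log2 fold changes of the 10 genes in the 5 consecutive comparisons without IFNγ, in color and as numbers, with a star where the limma adjusted p was below 0.1. The first 3 steps hold mostly rises and the last 2 mostly falls, with Bcl3 (4.75) and Tnfaip3 (-3.28) at the extremes.

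The first IFNγ comparison asked which members had moved after 2 days of treatment. At day 2, 2 of the 10 rose and none fell, beside 5.03% of the 15697 genes tested higher and 3.45% lower. Tnfaip3, the gene of A20, had 260 and 207 normalized counts in control cells and 536 and 507 with IFNγ. Bcl3 had 184 in each control library and 356 and 364 with IFNγ. Both IFNγ libraries were above both controls for each gene. The changes were 2.24-fold for Tnfaip3 (log2 1.16 ± 0.14, limma adjusted p 0.00671) and 1.95-fold for Bcl3 (0.97 ± 0.12, adjusted p 0.00731), and both calls held in each of the alternatives tried for this comparison. Some of these alternatives called further members, as given at the end. In the main test none of the 5 subunits was called. Rela was level, at 1036 and 1019 in controls and 1039 and 959 with IFNγ, and Nfkb2 and Rel also overlapped between the arms. Nfkb1 (0.24), Nfkbia (0.29) and Nfkbiz (0.46) were higher in both IFNγ libraries than in both controls, with limma adjusted p of 0.198, 0.161 and 0.152. The day 2 IFNγ libraries had less of the feeder marker sum (26342 and 32007, with 4 of 10 markers called lower) than the controls, and less of the Y-linked sum in the mean. These cells had been sorted against the CFSE-stained feeders, and the Y-linked reads mark RNA of the male feeders in both arms. The part of this feeder RNA in the changes was not tested.

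At day 5, the last day of treatment, no member was called. The limma test called 1.65% of the 15133 genes higher and 0.535% lower. An unadjusted limma p below 0.05 was found for 5 members. These shares belong to the adjusted threshold and do not apply to that looser cutoff, so they cannot show whether this count stands out. DESeq2 called 2 members and edgeR none, and the limma shares do not apply to these counts. More were called with all libraries in 1 fit and with the replicate number as a block, as given at the end. Nfkbie, the gene of IκBε, came closest, with 72.4 and 64.8 in control cells and 125 and 152 with IFNγ (log2 1.00 ± 0.21, limma adjusted p 0.1001). Relb had 488 and 475 against 602 and 756 (0.49 ± 0.14, adjusted p 0.165), and Rel 55.5 and 65.7 against 84.5 and 104 (0.63 ± 0.23, adjusted p 0.229). For these 3 genes both IFNγ libraries were above both controls, but the call depended on the test. Both were also above the controls for Nfkb1 (0.24), Nfkb2 (0.25) and Nfkbiz (0.27), with limma adjusted p of 0.216, 0.251 and 0.286. For Rela both were below them (-0.11, adjusted p 0.534). Without day 5 IFNγ replicate 1, Relb and Nfkbie were called. Bcl3, which had risen at day 2, stood at 431 and 461 against 484 and 420, and Tnfaip3 at 454 and 268 against 441 and 478, both with overlapping groups. The difference of the IFNγ effect between day 5 and day 2, tested as an interaction, passed for Bcl3 alone (-0.95 ± 0.17, limma adjusted p 0.0586), where 0.202% of all genes had a higher and 0.474% a lower effect. This call was lost in 7 of the 8 fits without 1 library. For Tnfaip3 the difference was -0.77 ± 0.31 (adjusted p 0.487).

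At day 7, 2 days after IFNγ had been withdrawn, most members differed between the arms, and in both directions. In the X-GFP–negative gate 4 rose and 5 fell, beside 31.1% of all genes higher and 30.8% lower. In X-GFP–medium cells 3 rose and 4 fell, beside 33.3% and 29.6%. In X-GFP–high cells 3 rose and 5 fell, beside 18.1% and 20.4%. Many genes changed at day 7 in general, and these counts are read against that. Across the 3 gates, 3 members were called higher in each (Nfkb1, Nfkbie and Bcl3) and 3 lower in each (Rela, Nfkbia and Tnfaip3), where 12.3% of the 14712 genes tested in all 3 were higher in each and 16.9% lower.

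Among the subunits, Nfkb1 and Rela moved apart. Nfkb1, the p105 and p50 gene, had 1775 and 1768 in X-GFP–negative controls and 2052 and 2046 with IFNγ. It had 1762 and 1651 against 2227 and 2342 in X-GFP–medium cells and 1548 and 1533 against 1867 and 1886 in X-GFP–high cells. These are log2 changes of 0.21 ± 0.07, 0.42 ± 0.07 and 0.28 ± 0.07, with limma adjusted p of 0.0226, 0.000484 and 0.0116. Rela, the main activating subunit, fell from 1450 and 1357 to 1060 and 910, from 1080 and 965 to 619 and 623, and from 647 and 609 to 425 and 458 in the same order of gates. Its log2 changes were -0.51 ± 0.09, -0.72 ± 0.09 and -0.51 ± 0.10 (limma adjusted p 0.00135, 7.26e-05 and 0.00323). For both genes the arms did not overlap in any gate. Relb fell in X-GFP–negative cells (868 and 798 against 716 and 597, -0.35 ± 0.11) and in X-GFP–medium cells (836 and 698 against 603 and 594, -0.35 ± 0.10), and in X-GFP–high cells its libraries overlapped. Nfkb2 was called higher in X-GFP–negative cells (1212 and 1112 against 1332 and 1285, 0.17 ± 0.08, adjusted p 0.0915) and lower in X-GFP–high cells (686 and 656 against 587 and 484, -0.33 ± 0.11, adjusted p 0.0421). Rel, at 71.2 to 112 normalized counts in these libraries, was not called in any gate.

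Of the inhibitors, Nfkbia and Nfkbie moved in opposite directions. Nfkbia, the gene of IκBα, fell from 2384 and 1858 to 1473 and 1290 in X-GFP–negative cells, from 1279 and 1074 to 919 and 849 in X-GFP–medium cells and from 1002 and 902 to 825 and 696 in X-GFP–high cells. The log2 changes were -0.61 ± 0.12, -0.41 ± 0.10 and -0.33 ± 0.10, with limma adjusted p of 0.00197, 0.00465 and 0.0325. Nfkbie rose from 36.2 and 46.1 to 131 and 144, from 37.6 and 36.1 to 85.1 and 122, and from 45.4 and 31.0 to 65.1 and 70.5. Its log2 changes of 1.72 ± 0.20, 1.45 ± 0.24 and 0.84 ± 0.26 were the largest in size among the 10 genes in both gates other than X-GFP–high, and the limma adjusted p were 0.000114, 0.000572 and 0.0305. All IFNγ libraries were above all controls of their gate. Per kilobase, Nfkbia remained far above Nfkbie with IFNγ, at 858 against 45.1 in X-GFP–negative cells. Both genes carry a κB match in the promoter window printed above.

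Tnfaip3 fell in each day 7 gate, after the rise at day 2. It went from 1182 and 856 to 651 and 559 in X-GFP–negative cells, from 665 and 467 to 294 and 330 in X-GFP–medium cells, and from 350 and 296 to 177 and 163 in X-GFP–high cells. The log2 changes were -0.74 ± 0.14, -0.83 ± 0.15 and -0.92 ± 0.14 (limma adjusted p 0.00231, 0.00121 and 0.000625). Bcl3 rose from 257 and 244 to 361 and 347, from 213 and 221 to 299 and 320, and from 264 and 284 to 315 and 370, by log2 0.50 ± 0.11, 0.51 ± 0.12 and 0.32 ± 0.13 (adjusted p 0.00452, 0.00469 and 0.0873). Nfkbiz fell in X-GFP–negative cells (868 and 841 against 699 and 614, -0.38 ± 0.09) and in X-GFP–high cells (285 and 331 against 230 and 223, -0.44 ± 0.13), and overlapped in X-GFP–medium cells (574 and 557 against 577 and 472). In the X-GFP–negative gate, rescaling to the same total moved the median of all genes from 0.02 to 0.17 and the share of higher among called genes from 50.3% to 66.3%. With it Relb (-0.19, adjusted p 0.145) lost its call there, and the other 8 kept theirs with their direction. In X-GFP–high cells the number of called members was 4 without control replicate 1, 5 without control replicate 2 and 5 without IFNγ replicate 2, and Rela and Tnfaip3 were called in each of these.

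**Figure D3:**
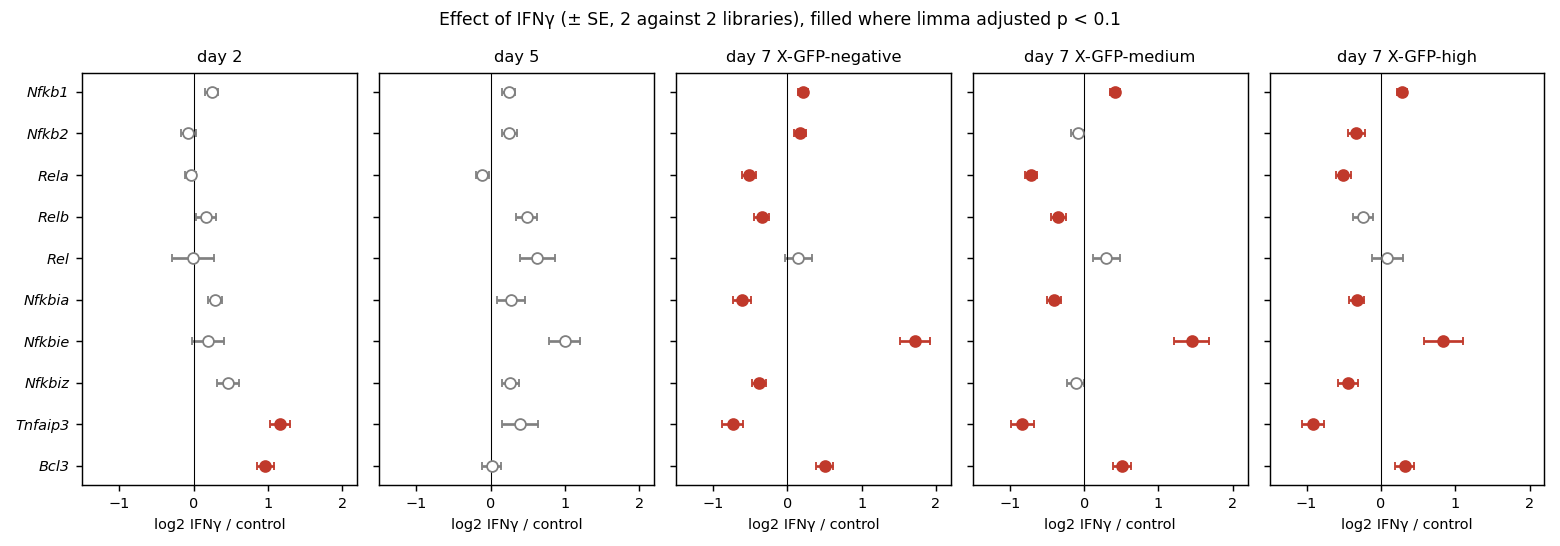
Log2 fold change of IFNγ over control with its SE for the 10 genes in 5 comparisons of 2 against 2 libraries, filled where the limma adjusted p was below 0.1. Tnfaip3 lies at 1.16 at day 2 and at -0.74 to -0.92 at day 7, while Bcl3 is above 0 in each of the comparisons in which it was called.

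Cell composition markers also differed between the arms at day 7. The ESC marker sum, not tested as a sum, went with IFNγ from 41311 and 45265 to 46879 and 47845 in X-GFP–negative cells, from 66589 and 67876 to 92762 and 94641 in X-GFP–medium cells and from 107855 and 111902 to 126714 and 130314 in X-GFP–high cells. Of its genes, Pou5f1 had lower means with IFNγ, from 23112 to 17290, 22750 to 16743 and 20633 to 19916 in that order. In X-GFP–medium cells Pou5f1 was called lower (log2 -0.44), and in X-GFP–high cells it was not called. The means of Nanog, Zfp42, Esrrb, Dppa5a, Fgf4 and Tdh were higher with IFNγ in each gate. The feeder marker sum was 4518 and 5143 against 1113 and 1130, 5109 and 5678 against 747 and 802, and 2211 and 2686 against 689 and 744, while the Y-linked sum was at most 12.5 in all of them. Of the feeder markers tested, 1 of 9 fell and 2 rose in X-GFP–negative cells, 4 of 9 fell and 2 rose in X-GFP–medium cells, and 1 of 8 fell and 1 rose in X-GFP–high cells. The sum of 8 leukocyte markers was 2498 and 2978 against 1079 and 1200, 1883 and 2190 against 1008 and 1232, and 1156 and 1296 against 557 and 724, with Cd68 and Csf1r called lower in each gate and Ptprc, the defining leukocyte gene, at 13.9 or less in each library. The NPC marker sum was 4775 and 4846 against 5030 and 5237, 2988 and 3240 against 1555 and 1860, and 1579 and 1639 against 716 and 749. Among the NPC markers, Sox1 (42.2 to 144) and Hes5 (5.45 to 39.2) rose in X-GFP–negative cells, and Nes fell in X-GFP–medium (2997 to 1630) and in X-GFP–high cells (1523 to 671). The part of these differences in the values of the NF-κB genes was not tested.

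The change of effect between day 5 and day 7 was tested directly. Between X-GFP–negative cells and day 5, the IFNγ effect differed for 7 of the 10 genes, beside 17.8% of the 15407 genes tested with a higher and 22.5% with a lower effect at day 7. The effect was lower at day 7 by 1.13 ± 0.32 for Tnfaip3 (log2 -1.13, limma adjusted p 0.0273), and the differences were -0.88 ± 0.26 for Nfkbia, -0.83 ± 0.18 for Relb, -0.65 ± 0.14 for Nfkbiz and -0.41 ± 0.13 for Rela. It was higher for Nfkbie (0.72 ± 0.28, adjusted p 0.0817) and Bcl3 (0.48 ± 0.16, adjusted p 0.0482). With rescaled values the median difference of all genes moved from -0.01 to 0.13, the share of higher among called genes went from 44.2% to 63.0%, and Rela was lost. Relb and Nfkbiz alone were called without X-GFP–negative control replicate 1, and Relb, Tnfaip3 and Nfkbiz without X-GFP–negative IFNγ replicate 2. Between X-GFP–high and X-GFP–negative cells, the effect differed for Nfkb2 (-0.50 ± 0.14, limma adjusted p 0.0325) and for Nfkbie (-0.88 ± 0.33, adjusted p 0.0967), beside 9.43% of all genes with a higher and 13.3% with a lower effect. Neither was called without X-GFP–high control replicate 1. Both calls held with rescaled values, where the median difference moved from -0.03 to -0.20 and the share of higher among called genes from 41.4% to 13.9%. For Tnfaip3, the difference between these gates was -0.18 ± 0.21 (adjusted p 0.618), and for Rela 0.01 ± 0.13.

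The rest of the pathway was counted in 4 lists. Among 20 ligands and receptors, 13 were tested at day 2, of which 3 rose and 1 fell. Tnfrsf1b, the second TNF receptor, went from 126 ± 5.84 to 333 ± 0.232 (log2 1.39, SD, n = 2) and Tnfrsf1a, the first, from 533 ± 103 to 870 ± 28.9 (0.72), while Il1rap, the IL-1 receptor accessory chain, fell from 1497 ± 29.7 to 1201 ± 36.7 (-0.32). At day 5 none of 14 was called. At day 7 the counts of higher and lower were 4 and 5 of 14 in the X-GFP–negative gate, 1 and 9 of 13 in the X-GFP–medium gate and 1 and 8 of 13 in the X-GFP–high gate. These list counts, and those of the lists that follow, stand beside the shares of all genes called higher and lower. The shares were 5.03% and 3.45% at day 2 and 1.65% and 0.535% at day 5. In the day 7 gates, in the same order, they were 31.1% and 30.8%, 33.3% and 29.6%, and 18.1% and 20.4%. Tnfrsf12a, the TWEAK receptor, fell in all 3 gates, by log2 -1.34, -1.85 and -1.34. Il1a, the IL-1α gene, fell from 139 ± 14.5 to 15.8 ± 7.10 in X-GFP–negative cells, Il1rap from 297 ± 19.4 to 70.1 ± 28.0 in X-GFP–medium cells and Tnfrsf1a from 204 ± 42.5 to 88.5 ± 15.3 in X-GFP–high cells. Tlr2 rose in X-GFP–negative cells by 0.24. The list medians were -0.18, -1.58 and -0.61, beside 0.02, 0.04 and 0.03 for all genes.

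Of 23 adaptors and kinases, Irak2 (58.0 ± 21.7 to 159 ± 16.1, log2 1.48) and Myd88 (209 ± 7.34 to 388 ± 10.2, 0.89), which carry the signal of IL-1 and Toll-like receptors, rose at day 2, out of 22 tested. None of 23 was called at day 5. At day 7, 3 rose and 10 fell in X-GFP–negative cells, 5 and 10 in X-GFP–medium cells, and 3 and 9 in X-GFP–high cells, of 23 tested in each. Irak2 was among those that fell in X-GFP–negative cells (740 ± 108 to 341 ± 18.9, -1.11), together with Ikbkg, the gene of the IKK subunit NEMO (2616 ± 145 to 1460 ± 97.3, -0.84). In X-GFP–medium cells Ikbke (-0.64) and Ikbkg (-0.53) had the largest decreases by the rule, and in X-GFP–high cells Tradd (-0.47) and Traf2 (-0.41). Map3k7, the gene of the kinase TAK1, rose in all 3 gates, by 0.24, 0.33 and 0.20. Irak4 rose in X-GFP–medium cells (0.40) and Chuk, the gene of IKKα, in X-GFP–high cells (0.19).

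Of 15 other inhibitors, Cyld, a deubiquitinase, was the single gene called at day 2 (997 ± 33.7 to 1803 ± 1.66, log2 0.86, limma adjusted p 0.000817). None of 14 was called at day 5, and at day 7 2 rose and 9 fell of 14 in X-GFP–negative, 1 and 6 in X-GFP–medium, and 2 and 5 in X-GFP–high cells. Tnip1, whose product binds A20, fell from a mean of 5995 to 3037 in X-GFP–negative cells (-0.98), and by -0.95 and -0.65 in the others. Rnf11, of the same ubiquitin-editing complex, fell in X-GFP–negative (-0.84) and X-GFP–medium cells (-0.61), and Otud7b, a deubiquitinase, in X-GFP–high cells (-0.44). Nfkbib, the gene of IκBβ, rose in all 3 gates, by 0.37, 0.42 and 0.30, Otulin in X-GFP–negative cells by 0.30 and Zc3h12a in X-GFP–high cells by 0.73.

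Of 23 target genes, 10 of 19 tested rose at day 2 and none fell, with a median log2 change of 0.74 beside 0.01 for all genes. Nos2, the inducible nitric oxide synthase, went from 41.8 ± 5.73 to 244 ± 106 (2.45) and Lcn2, the gene of lipocalin 2, from 29.7 ± 5.51 to 143 ± 49.9 (2.19). At day 5, Csf1 (113 ± 30.5 to 322 ± 18.8, 1.53) and Icam1 (778 ± 98.6 to 1314 ± 137, 0.76) rose, of 15 tested. At day 7 the counts were 4 higher and 8 lower of 14 in X-GFP–negative, 3 and 7 of 14 in X-GFP–medium, and 3 and 7 of 13 in X-GFP–high cells. Nos2 fell by -2.59, -2.69 and -2.35 in the 3 gates, and Ptgs2, the gene of cyclooxygenase 2, by -2.11, -2.50 and -1.46. Icam1, an adhesion molecule, rose in X-GFP–negative (0.19) and X-GFP–medium cells (0.35), Csf1 in X-GFP–negative cells (0.59), Saa3 in X-GFP–medium cells (1.54) and again in the X-GFP–high gate (0.82), and Sod2 in X-GFP–high cells (0.26). Several of these targets, Nos2 and Icam1 among them, are also known targets of IRF1, and these inputs cannot be told apart here. The IFNγ response genes themselves were higher at day 5 (5 of 5 tested) and in the 3 day 7 gates (4 of 4, 5 of 5 and 3 of 5).

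**Figure D4:**
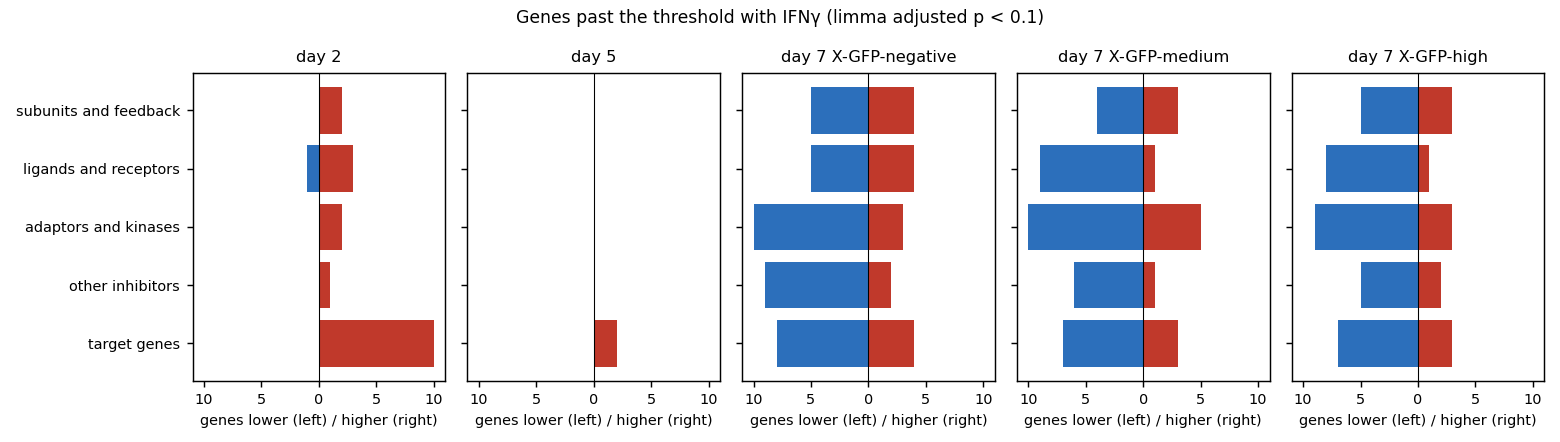
Number of genes called higher (red, to the right) and lower (blue, to the left) with IFNγ at a limma adjusted p below 0.1, for the 10 NF-κB genes and 4 other lists of the pathway in 5 comparisons. The target genes have 10 higher and no lower calls at day 2 and more lower than higher calls in each day 7 gate.

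On the X chromosome lie 3 genes of the kinase branch, Ikbkg, Irak1 and Tab3, which have allelic values, the proportion of allelic reads from X mus, with 1 value per population and no replicate. None of the 10 NF-κB genes is X-linked. In X-GFP–medium cells the proportion was 0.0729 without and 0.131 with IFNγ for Ikbkg, 0.129 and 0.237 for Irak1, and 0.141 and 0.279 for Tab3, beside medians over all genes of the table of 0.110 and 0.236. In X-GFP–high cells it was 0.250 and 0.317, 0.320 and 0.391, and 0.359 and 0.425. The 3 genes were between 0.0116 and 0.0513 in the X-GFP–negative gate, and in ESCs between 0.423 and 0.434. The proportion of Ikbkg was below that of Irak1 and Tab3 in both arms of these 2 gates, and above them in NPCs (0.0616) and at day 2 (0.125 and 0.15), where the median was 0.00107 to 0.0212. The day 2 libraries also carried Y-linked reads of the male feeders, and the part of feeder RNA in these proportions was not tested. Total counts of Ikbkg fell with IFNγ in X-GFP–medium cells by log2 -0.53 while its X mus proportion was higher. Without depth or replicates, no test of the proportions was made.

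**Figure D5:**
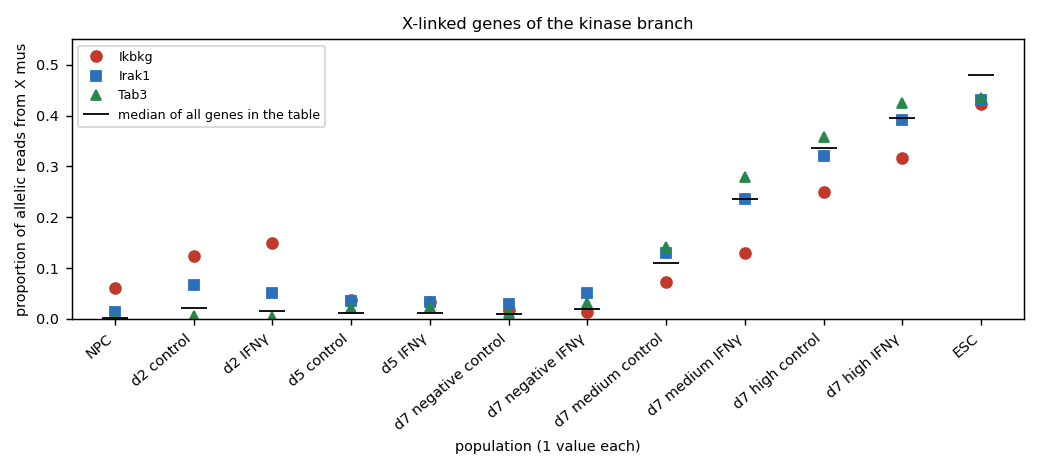
Proportion of allelic reads from X mus for Ikbkg, Irak1 and Tab3 in the 12 populations, 1 value each, with a dash at the median of all genes in the allelic table. The 3 genes lie above 0.4 in ESCs, and in X-GFP–medium cells all 3 are higher with IFNγ than without.

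For the 3 members with the widest range, the genes of most similar pattern were sought by Pearson correlation of log2 values over the 12 population means, among 12021 genes with a mean of at least 100. The nearest to Bcl3 were Oas1g (r = 0.985), Oas1a (0.981) and Pou5f1 (0.966). Those nearest to Relb were Spint1 (0.996), Erbb3 (0.988) and Cldn4 (0.987), and those nearest to Tnfaip3 were F3 (0.973), Acap2 (0.973) and Pdlim2 (0.971). Among the 10 genes themselves, the closest pair was Nfkbiz and Tnfaip3 (r = 0.929), followed by Relb and Bcl3 (0.878), and the least alike were Nfkbia and Nfkbie (-0.0031). The 12 points share 1 line, and both arms of a day started from NPCs of that line, so these values are a description.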

How the data were processed

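RNA-seq values of 24 libraries, 2 per population, were analyzed. The signal values deposited by the authors are normalized counts. The authors aligned reads with STAR, filtered by WASP, to mm10 in which strain variants had been masked, counted them per gene with HTSeq 0.6.1, and divided each library's counts by its DESeq2 size factor. Whole reads could be recovered for 100% of the values, within 0.01 reads, and served the alternatives with edgeR 4.0.16 and DESeq2 1.42.0. The allelic table, also deposited by the authors, gives the proportion of X mus reads for 316 genes, without read numbers.

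Symbols came from GENCODE vM21, which held 95.0% of the identifiers. Differences were tested with limma 3.58.1 in R 4.3.3 (lmFit, eBayes with a trend, two-sided) on log2(normalized count + 1), over genes with a mean above 10 in the libraries compared, with Benjamini-Hochberg adjustment and a threshold of 0.1. Fold changes from the tests are on this scale, which understates those of low genes. Folds between the highest and the lowest population are plain ratios of mean normalized counts. Differences of IFNγ effects were tested as interactions over 8 libraries. The procedure was tested on simulated data, in which the share of false calls exceeded the threshold of 0.1. Alternatives tried were no filter, a pseudocount of 0.1, rescaling to the same total, 1 fit over the 24 libraries, a block for the replicate number, DESeq2, edgeR and leaving out each library. Labels number the replicates without naming separate cultures, while the study describes the replicates behind a score from these data as independent. P-values measure the spread between these samples, which may in part be technical. Replicates differed by more than sampling noise (chi-square per degree of freedom 3.16 to 19.3). With 2 against 2 libraries an exact permutation test of a single value cannot go below 0.33.

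The members and lists were chosen with earlier results of these data known. The text names the 10 genes, the IFNγ response genes and Ikbkg, Irak1 and Tab3. From each pathway list in each IFNγ comparison it names up to 2 increases and 2 decreases, the largest among called genes whose libraries did not overlap and whose mean reached 100 in a group. For the 3 members of widest range it names the 3 genes most alike. Python 3.11.15, numpy 2.4.6, pandas 2.3.3 and matplotlib 3.10.9 were used.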

Additional observations from a re-analysis of the deposited data

Results flagged for a closer look

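The difference of the IFNγ effect between populations passed the test for 10 combinations of gene and comparison, all given on the log2 scale with limma. Between day 5 and day 2 the effect on Bcl3 differed by -0.95. Between X-GFP–negative cells at day 7 and day 5 it differed by -1.13 for Tnfaip3, -0.88 for Nfkbia, -0.83 for Relb, -0.65 for Nfkbiz, -0.41 for Rela, 0.72 for Nfkbie and 0.48 for Bcl3. Between X-GFP–high and X-GFP–negative cells at day 7 it differed by -0.50 for Nfkb2 and -0.88 for Nfkbie. IFNγ was absent for 2 days before the day 7 collection, and the time since its withdrawal and the day of reprogramming cannot be told apart in this design.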

How the results depend on the processing

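For the 156 gene values named, 1561 of 1756 recomputed values kept their direction and their side of the threshold, 161 lost the call, 25 gained one and 9 changed sign, each of the 9 for a gene not called. The number of called members moved by more than 1.5 times in these cases, and the cause was not tested. The shares of all genes given in the results belong to the main test. Numbers from the alternatives, here and below, have no such share beside them. They describe how the count moved with the method, and not whether the members stand out. At day 2 it was 4 with all libraries in 1 fit, against 2. At day 5 it was 1 with rescaled values, 4 with all libraries in 1 fit and 2 with DESeq2, against 0. In X-GFP–high cells it was 4 without a filter and 5 with all libraries in 1 fit, against 8. In the X-GFP–negative control against day 5 it was 5 with DESeq2, against 8. For the effect in X-GFP–high against X-GFP–negative cells it was 1 with a pseudocount of 0.1, 1 without a filter, 1 with all libraries in 1 fit and 1 with DESeq2, against 2. The range of Relb over populations, taken from means plus 1, was 4.48 on the log2 scale with rescaled values, against 4.69.

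With the replicate number as a block, 5 members were called at day 2 and 6 at day 5. The labels do not say that equal numbers share a culture or day, and the deviations of same-numbered libraries correlated at 0.31 at day 2, 0.26 at day 5, and 0.12, 0.096 and 0.049 in X-GFP–negative, –medium and –high cells, so the numbers were not taken as a pairing.

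Leaving out 1 library gave 0 to 2 called members at day 5, 4 to 9 in X-GFP–high cells, 5 to 7 from day 2 to day 5 control and 5 to 9 from day 5 to the X-GFP–negative control. For the differences of effect it gave 0 to 1 (day 5 against day 2, with 1 only without day 5 IFNγ replicate 1), 2 to 6 (X-GFP–negative cells against day 5) and 0 to 3 (X-GFP–high against X-GFP–negative cells, with 0 without X-GFP–high control replicate 1). The log2 changes that turned sign ranged from -0.10 to 0.02 for Rela, -0.15 to 0.0034 for Nfkb2 and -0.10 to 0.09 for Rel at day 2, from -0.09 to 0.12 for Bcl3 and -0.01 to 0.56 for Nfkbia at day 5, and from -0.18 to 0.01 for Nfkb2 and -0.26 to 0.03 for Nfkbiz in X-GFP–medium cells. Where a group was left with 1 library, it was assumed to vary like the others. Depth limits Bcl3, Rel, Tnfaip3 and Nfkbie most, with as few as 5, 18, 25 and 29 reads in a library.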

Other observations

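The lower feeder marker sum with IFNγ at day 7 came mostly from 1 of the 10 genes, Dcn, singled out after its values were seen. Its mean normalized count was 4051 without and 253 with IFNγ in X-GFP–negative cells, 4746 and 204 in X-GFP–medium cells and 1922 and 80.1 in X-GFP–high cells. The leukocyte marker sum was mostly Cd68, also chosen afterwards, with 2544 and 1088, 1939 and 1092, and 1170 and 598 in the same order. Csf1r, another gene of that list, had 172 and 32.2, 74.2 and 13.0, and 31.4 and 9.18.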
